A study of Mus musculus with 22 samples.

Results

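The livers compared here came from 6 fed adult C57BL/6 mice, 3 of them knockout for Tcf7l2 in liver and 3 controls, out of 22 livers in the study. They were chosen by their titles, which read LTCF4KO Fed liver or Control Fed liver. The knockouts carried floxed Tcf7l2 on both alleles and a Cre recombinase named SA-CreERT2, which tamoxifen switches on, and the controls carried the same floxed alleles without that Cre. All 6 mice, controls included, received tamoxifen at 3 weeks of age and 1 to 2 months later had food over the 24 h before the liver was taken, so the effect of tamoxifen is shared, while that of an active Cre itself cannot be told apart from the loss of the gene. The labels do not spell out the promoter that drives the Cre. Whole liver was measured, and in bulk RNA fewer cells of a type and less RNA per cell cannot be told apart. The other adults, 4 knockouts and 4 controls of the same genotypes that had been fasted for 24 h, serve below as the comparison.

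Tcf7l2 encodes TCF4, a DNA-binding partner of beta-catenin. When Wnt ligands stabilise beta-catenin, it joins TCF proteins on DNA and turns on Wnt target genes. In the liver lobule the endothelium around the central vein supplies Wnt, and the hepatocytes next to that vein make glutamine from ammonium and break down drugs. Hepatocytes around the portal vein, where the Wnt signal is low, run the urea cycle, amino acid breakdown and glucose production.

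Each liver RNA was hybridised on its own 2-colour Agilent array against one common mouse reference RNA, and values are log2 ratios of liver over reference, so a difference of 1 between groups is a 2-fold change. The labels call the mice of a group biological replicates, and the number of arrays limits the precision. The liver channel was weak on all fed arrays, with 22.8% to 31.2% of spots well above background in knockouts and 23.5% to 27.8% in controls, against 50.2% to 62.0% on the fasted arrays. Knockout 3 stood apart, with the lowest share of such spots and the highest negative-control signal, 180.5 intensity units above local background against 88 to 123 on the other fed arrays. On the first principal component of the 6 arrays, which held 33.75% of the variance, it lay at 0.05, while knockouts 1 and 2 lay at 20.08 and 16.12 and the controls between -15.46 and -7.99. Both genotypes were on each slide, with knockouts 1 and 2 and control 1 on slide 5 and knockout 3 and controls 2 and 3 on slide 6. Among 18 hepatocyte genes such as albumin, 15 could be tested, and their mean ratio per array was 5.40 to 5.85 in knockouts and 5.20 to 5.37 in controls, so the samples read as liver. The Y-linked genes Ddx3y and Eif2s3y were well above background on all 6 arrays, and no probe of Xist was so on more than 1 of the 6.

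**Figure D1:**
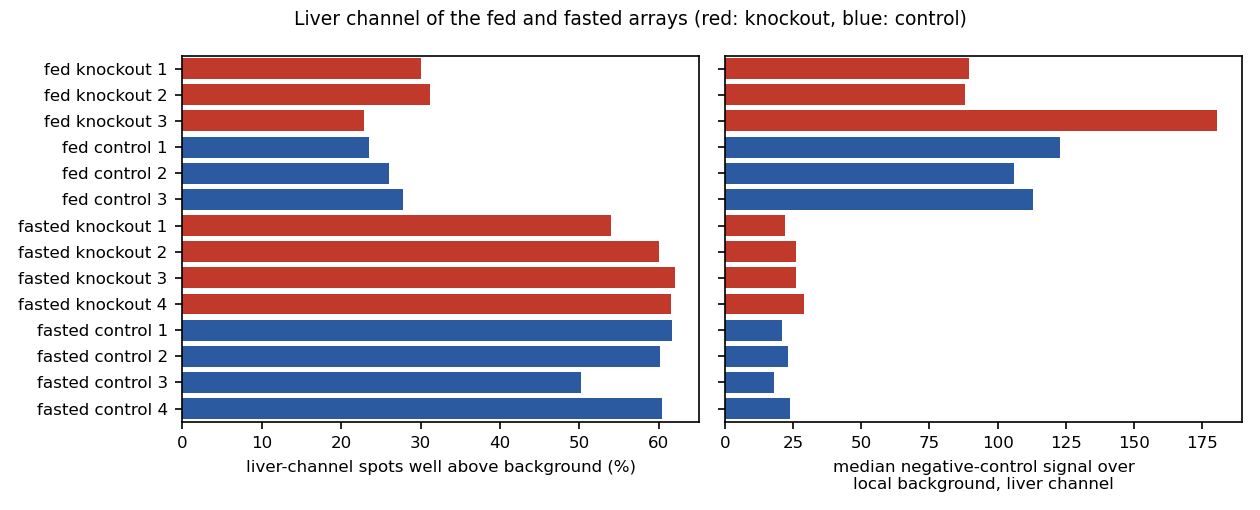
Bars give, for each fed and fasted array, the percent of liver-channel spots well above background (left) and the median negative-control signal above local background in intensity units (right), with knockouts in red and controls in blue. The 6 fed arrays lie at 22.8% to 31.2% and the 8 fasted arrays at 50.2% to 62.0%, and fed knockout 3 has the highest negative-control signal, 180.5 units.

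The targeted gene gave no check of the labels. The array holds 3 Tcf7l2 probes on chromosome 19 of build mm9, and the one that was well above background, at 56007586 to 56007645, read 0.01, -0.35 and -0.13 in knockouts 1 to 3 and -0.37, -0.06 and -0.64 in controls 1 to 3. The groups overlapped, and the change was 0.21 ± 0.20 (SE, limma adjusted p = 0.999). The probes at 55982975 to 55983034 and 56006460 to 56006519 were not well above background on any fed array and differed by 0.38 and -0.11. The labels do not give the deleted part of the gene, and a probe outside it checks nothing, so the mice are knockouts by label alone and every direction below rests on those labels.

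In fed knockout livers 27 genes were lower and 10 were higher than in fed control livers, out of 8866 tested (0.305% lower and 0.113% higher, 0.417% in all), by limma with Benjamini-Hochberg adjustment at an adjusted p of 0.05. The lower genes were led by Lhpp, Oat and Glul, which hepatocytes next to the central vein express, with log2 changes between -4.33 and -3.82. Slc1a2, of the same cells, was not well above background in any knockout and was at least 6.44-fold lower. The higher genes included Cps1, Hal, Sdsl and Etnppl, enzymes of hepatocytes around the portal vein, with log2 changes of 0.53 to 1.27. Of the 37 genes, 25 changed at least 2-fold. In all 37 the 3 knockouts lay on one side of the 3 controls. The calls were made from these same values, so that separation is no further support. Over all genes it held for 9.18% (knockouts above) and 4.74% (knockouts below). An unadjusted p under 0.05 was found for 7.57% of the genes.

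The higher calls were the less steady part. With slide as a block 13 genes were higher and 25 lower, of the original calls 6 and 22. Each within-slide comparison has 1 mouse on one side, control 1 on slide 5 and knockout 3 on slide 6, which is assumed to vary like the other groups. Within-slide changes of genes and lists are therefore given below as sizes. The median change over all genes was 0.03 on slide 5 and 0.04 on slide 6. Without knockout 3, 33 genes were higher and 32 lower. With local backgrounds that the scanner software marked as outliers kept, 0 were higher and 9 lower, with the software's own processed signals 4 and 28, with median centring in place of loess 0 and 24, and with the liver channel alone 1 and 32. Median centring also moved the median change of all genes from 0.03 to -0.10.

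**Figure D2:**
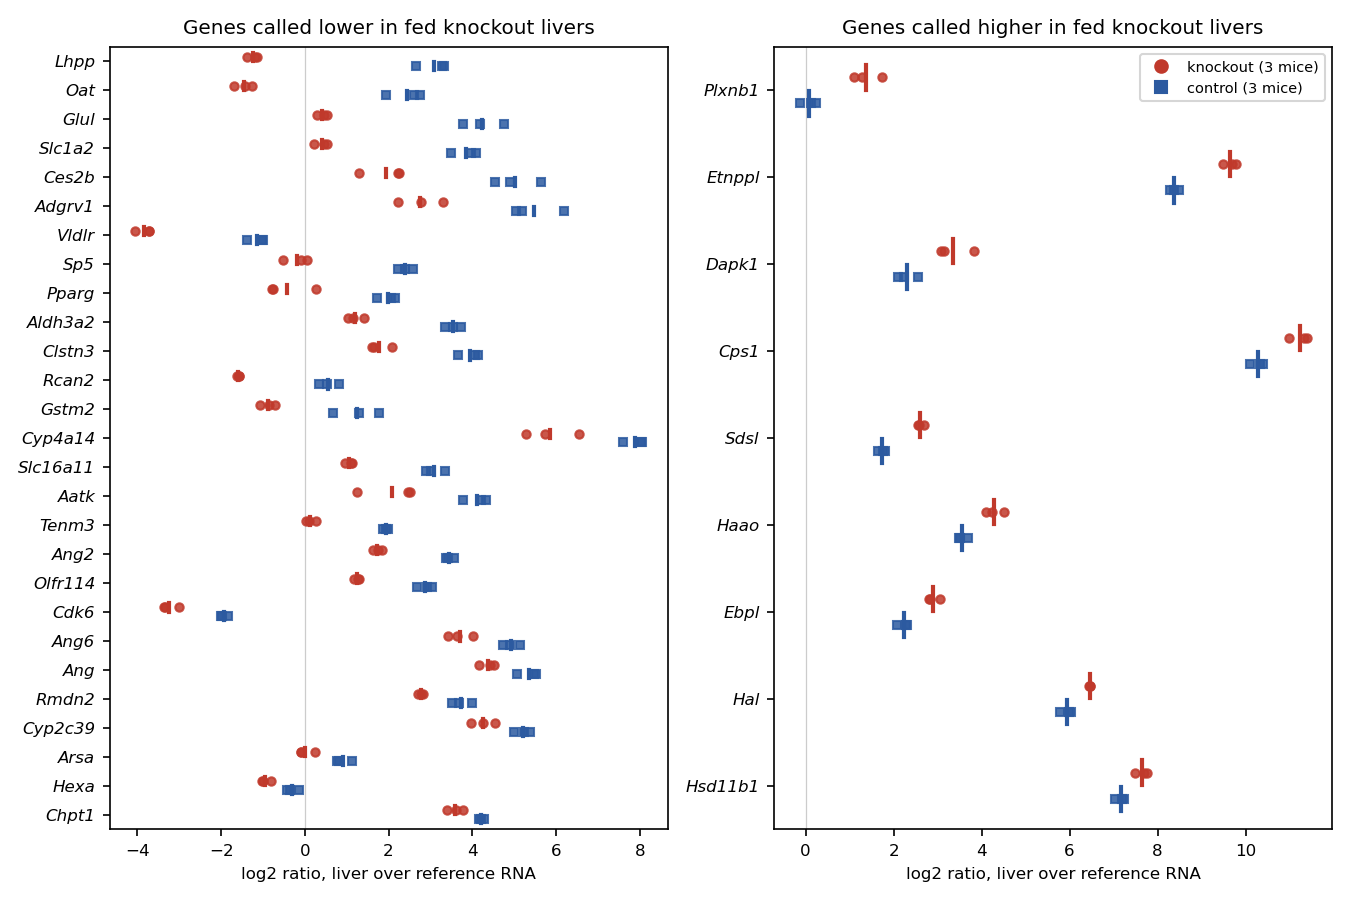
Each point is the log2 ratio of liver over reference RNA in one mouse (knockout, red circles, above control, blue squares), and each vertical tick is the mean of 3 mice, for the 27 genes called lower (left) and 9 of the 10 called higher (right) in fed knockout livers. In every gene shown the 3 knockouts and the 3 controls do not overlap, with differences of means from -4.33 (Lhpp) to 1.30 (Plxnb1).

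Of the Wnt machinery itself, little could be read at this signal. Among 18 genes of TCF proteins, beta-catenin and their partners 7 were tested and none passed. Ctnnb1, which encodes beta-catenin, had a log2 change of 0.11 ± 0.08 (adjusted p = 0.968), and Tcf7l1, which encodes the related TCF3, had 0.14 ± 0.24 (adjusted p = 0.999). Among 24 genes of Wnt ligands, receptors and modulators 6 were tested and none passed. Of 18 Wnt target genes only 5 were tested, and 1 passed.

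That gene was Sp5, which encodes a zinc-finger transcription factor induced by beta-catenin in many tissues. Its log2 ratios were -0.51, 0.04 and -0.09 in knockouts 1 to 3 and 2.40, 2.58 and 2.22 in controls 1 to 3. No knockout array was well above background and all 3 control arrays were, so the difference is a bound: Sp5 was at least 1.81-fold lower in knockouts (limma adjusted p = 0.000334), with measured means of -0.19 ± 0.29 in knockouts and 2.40 ± 0.18 in controls (SD, n = 3 each). The other 4 tested targets had changes below 0 without passing. Of the 5, only 1 was well above background on all 6 fed arrays. A gene that enters the test through bright controls tends to read lower in knockouts, so the shared direction is no support. Tbx3, a T-box factor that marks beta-catenin activity in hepatocytes, read -0.90, -1.13 and -0.46 in knockouts against 2.28, 1.09 and 1.47 in controls. Its groups did not overlap, and the change of -2.44 ± 0.48 fell just short (adjusted p = 0.0516). Rnf43, which removes Wnt receptors from the surface, had a change of -0.54 ± 0.40, Nkd1, an inhibitor of the pathway, one of -0.27 ± 0.18 and the growth regulator Myc one of -0.87 ± 0.67 (adjusted p of 0.932, 0.894 and 0.946).

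Several defining Wnt targets lay too close to background for a test. The single Axin2 probe was well above background on none of the 6 fed arrays, and so was the single Lgr5 probe, whose ratios were 0.16, -0.12 and -0.18 in knockouts and 1.47, 1.78 and 1.70 in controls. Lgr5 encodes a receptor of R-spondins, and its 3 knockouts lay below the 3 controls in a signal that was not well above background. Tnfrsf19, a target gene of the same pathway, was well above background on 2 control arrays and no knockout array and was not tested.

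Sp5 and Slc1a2 are shown by their promoters, because these were 2 of the 3 lower genes whose promoter held a TCF core motif. CTTTGAA or CTTTGAT was searched on both strands from 250 bases before to 50 bases after the start in the RefSeq promoters of GRCm38.p6, and the match is in capitals. The Slc1a2 promoter lies at chr2:102706188-102706487 and the Sp5 promoter at chr2:70474673-70474972, both on the plus strand.
Slc1a2: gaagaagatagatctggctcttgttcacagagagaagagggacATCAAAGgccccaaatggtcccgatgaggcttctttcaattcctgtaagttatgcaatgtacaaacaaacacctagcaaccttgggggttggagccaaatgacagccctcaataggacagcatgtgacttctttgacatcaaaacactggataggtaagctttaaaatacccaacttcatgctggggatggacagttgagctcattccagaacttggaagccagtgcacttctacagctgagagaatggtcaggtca
Sp5: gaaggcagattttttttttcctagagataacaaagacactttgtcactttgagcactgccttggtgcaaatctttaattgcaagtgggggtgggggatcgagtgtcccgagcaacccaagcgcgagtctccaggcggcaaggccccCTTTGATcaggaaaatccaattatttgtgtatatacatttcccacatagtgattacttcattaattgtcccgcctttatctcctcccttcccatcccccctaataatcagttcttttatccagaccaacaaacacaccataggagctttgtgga
The motif begins at -207 from the start in Slc1a2 and at -104 in Sp5. Cyp2c39 was the third lower gene with a match, in each of its 2 promoter entries. In all, 3 of 23 lower genes with a promoter in the table held it (13.04%), and so did 2 of 7 higher genes, Haao and Hal (28.57%), against 474 of 6610 tested genes (7.17%) and 2671 of 27025 genes in the promoter table (9.88%), a gene counting once if any of its promoters held it. A match is a description of letters and no match says nothing of binding elsewhere.

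The largest measured falls, those of Lhpp, Oat and Glul, were in genes of the hepatocytes next to the central vein. Of 28 pericentral genes 23 were tested, and 4 passed, all lower, where 0.305% of all genes were called lower. Lhpp, which encodes a phosphohistidine phosphatase, read -1.14, -1.38 and -1.19 in knockouts 1 to 3 and 3.28, 2.67 and 3.34 in controls 1 to 3. Every knockout was more than 3 log2 units below every control. Its log2 change was -4.33 ± 0.26 (SE, adjusted p = 2.21e-06), 20.1-fold.

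Oat, ornithine aminotransferase, which feeds carbon from ornithine toward glutamate, read -1.43, -1.68 and -1.25 in knockouts and 2.60, 1.94 and 2.76 in controls. It fell by 3.89 ± 0.26 (SE, adjusted p = 4.92e-06), 14.8-fold, again with no overlap. Glul, glutamine synthetase, the enzyme that fixes ammonium into glutamine in the last hepatocytes before the central vein, read 0.53, 0.45 and 0.28 in knockouts. In controls Glul read 4.18, 3.77 and 4.76, and it fell by 3.82 ± 0.35 (adjusted p = 9.58e-05), 14.1-fold. The 3 knockouts were close to each other, with an SD of 0.13, and the controls were more spread, with an SD of 0.50.

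Slc1a2, the glutamate transporter GLT1, read 0.46, 0.53 and 0.23 in knockouts and 3.50, 3.98 and 4.09 in controls. It was well above background in the 3 controls and in no knockout, and was at least 6.44-fold lower (adjusted p = 2.21e-06), with measured means of 0.41 ± 0.16 in knockouts and 3.86 ± 0.31 in controls (SD, n = 3 each). Over the alternatives its log2 change ran from -4.99 to -1.73, the smaller of which lies under that bound. Rhbg, the ammonium transporter of the same cells, was likewise well above background only in controls, at 1.47, 1.69 and 1.34 in knockouts against 3.95, 2.60 and 5.06 in controls. Its groups did not overlap, with measured means of 1.50 ± 0.18 in knockouts and 3.87 ± 1.23 in controls (SD, n = 3 each), but it did not pass (adjusted p = 0.0828).

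The measured changes of Lhpp, Oat, Glul and Slc1a2 lay below -3 on both slides, that of Slc1a2 with knockouts not well above background. On slide 5 they were -4.54, -4.16, -3.69 and -3.01, and on slide 6 they were -4.19, -3.60, -3.99 and -3.81. All 4 passed without any one mouse. Lhpp, Oat and Glul passed under all 26 alternatives, Slc1a2 under 24 of 25.

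No other pericentral gene passed. Cyp2e1, the ethanol-oxidising P450 of pericentral cells, read 6.84, 6.72 and 6.59 in knockouts against 7.37, 7.67 and 7.09 in controls, a change of -0.66 ± 0.16 that did not pass (adjusted p = 0.134). Cyp2a5, a coumarin hydroxylase, had a change of -0.83 ± 0.22 (adjusted p = 0.195), but one of 0.20 with the software's processed signals. Over the 23 genes 14 changes lay below 0, where 39.8% of all genes did, and the median was -0.32, against 0.03 over all genes tested. In 8 of the 23 all knockouts lay below all controls and in 1 above, where 4.74% and 9.18% of all genes did. The median was -0.22 on slide 5 and -0.24 on slide 6, and it was -0.01 with the software's processed signals and -0.72 in the liver channel alone, where 0 of the 23 lay above 0 and 7 were lower. The size of the list's shift depended on the processing.

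Genes of the hepatocytes around the portal vein lay on the other side of zero. Of 28 periportal genes 27 were tested, 4 rose and none fell, and 25 changes were above 0 with a median of 0.41, where 60.2% of all genes were above 0. In 16 of the 27 all 3 knockouts lay above all 3 controls. Over all genes tested 9.18% were so separated and 0.113% were called higher. The list of 39 urea cycle and amino acid genes, which shares members with it, had 4 higher and none lower, with 36 changes above 0 and a median of 0.39.

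Cps1, carbamoyl phosphate synthetase, the entry step of the urea cycle, read 11.39, 10.99 and 11.32 in knockouts and 10.11, 10.41 and 10.32 in controls. It rose by 0.95 ± 0.18 (SE, adjusted p = 0.0373), 1.94-fold, and when mice were left out in turn it passed without knockout 2 but not without any of the other 5. Ass1, the argininosuccinate synthetase of the same cycle, had a change of 0.41 ± 0.11 and Otc, ornithine transcarbamylase, one of 0.61 ± 0.16 (adjusted p of 0.195 each). Neither passed, though in both the 3 knockouts lay above the 3 controls.

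Hal, histidine ammonia-lyase, which starts histidine breakdown, read 6.45, 6.46 and 6.47 in knockouts and 6.00, 6.02 and 5.78 in controls. The rise was small, 0.53 ± 0.09 (adjusted p = 0.0236), and the knockouts were nearly equal, with an SD of 0.01. Sdsl, a relative of serine dehydratase, read 2.68, 2.54 and 2.57 in knockouts and 1.80, 1.64 and 1.77 in controls. It rose by 0.86 ± 0.13 (adjusted p = 0.00721) and passed without any one mouse. Sds, serine dehydratase itself, had a change of 0.48 ± 0.12 (adjusted p = 0.161), Gls2, the liver glutaminase, one of 0.55 ± 0.11 (adjusted p = 0.0743) and Gldc, of glycine cleavage, one of 1.08 ± 0.27 (adjusted p = 0.170).

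Etnppl, which breaks down phosphoethanolamine, read 9.78, 9.69 and 9.48 in knockouts and 8.27, 8.49 and 8.37 in controls. It rose by 1.27 ± 0.20 (adjusted p = 0.0116), 2.41-fold, by 1.46 on slide 5 and 1.05 on slide 6. Haao, a dioxygenase of tryptophan breakdown, read 4.51, 4.24 and 4.10 in knockouts and 3.70, 3.48 and 3.51 in controls, a rise of 0.72 ± 0.13 (adjusted p = 0.0305). Left out in turn, Etnppl and Hal lost their calls without knockout 1, knockout 2, control 1 or control 3, and Haao without any mouse other than knockout 3. Aldh1b1, a mitochondrial aldehyde dehydrogenase on the periportal list, had a change of 0.96 ± 0.22 that did not pass (adjusted p = 0.105).

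**Figure D3:**
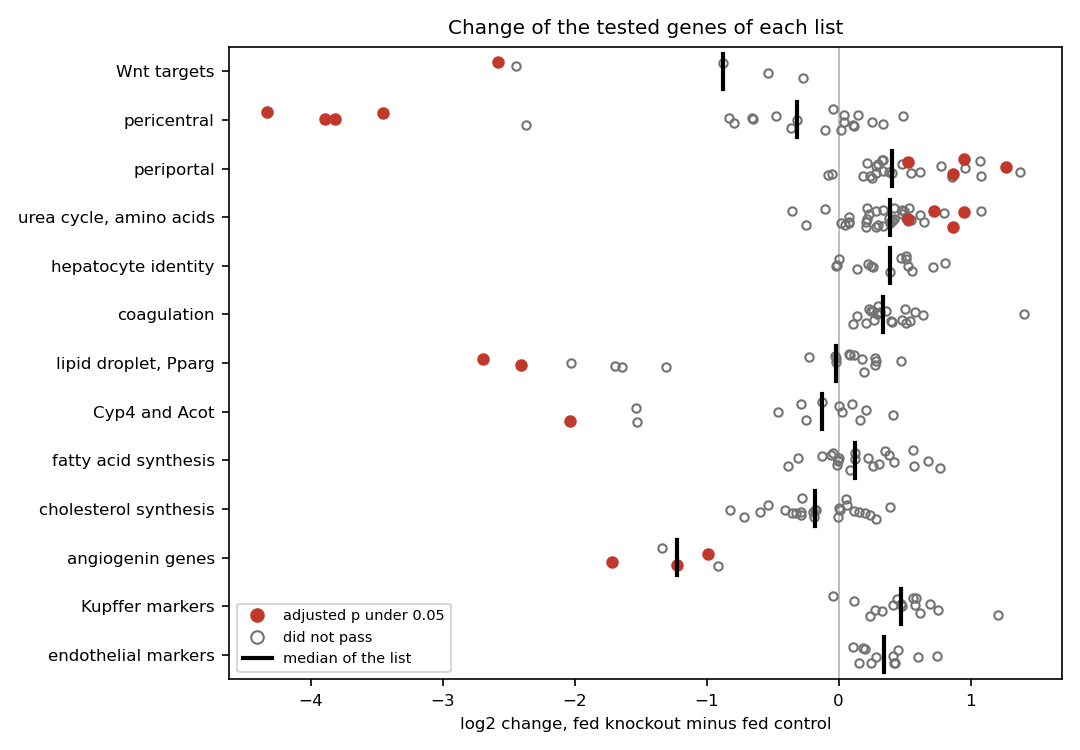
Each circle is one tested gene of a list at its log2 change in fed livers, knockout minus control, filled in red where the adjusted p was under 0.05, and the black bar is the median of the list. The 4 filled pericentral genes lie at -4.33 to -3.45, the last being Slc1a2, whose knockouts were not well above background, the periportal median is 0.41, and all 5 angiogenin genes lie below 0.

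A wider shift went with these rises. Genes with a high liver-to-reference ratio read higher in knockouts 1 and 2, while knockout 3 lay among the controls. For the 268 genes with a mean log2 ratio of at least 6 the median change was 0.31 and 92.91% were above 0, and for the 394 genes between 4 and 6 the median was 0.20, against -0.04 for genes below -2. By array, the median ratio of the highest range was 7.45, 7.24 and 7.05 in knockouts 1 to 3 and 7.02, 7.06 and 6.88 in controls 1 to 3, and that of the range from 4 to 6 was 5.14, 4.99 and 4.76 in knockouts and 4.73, 4.89 and 4.71 in controls. The shift for the highest range was 0.32 on slide 5, 0.15 on slide 6 and 0.03 in fasted livers. The periportal genes lie in the same ranges, with a median ratio of 6.20, and after the median change of their own range was subtracted their median was 0.18, with 21 of 27 above 0. Subtracting it moved the urea cycle and amino acid list to 0.16, with 27 of 39 above 0, and the pericentral list to -0.46, with 3 of 23 above 0.

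The same shift was seen in liver gene lists that were not drawn up by zone. Whether their members differ by zone was not tested. All 20 tested coagulation genes and all 22 tested acute-phase genes had changes above 0, with medians of 0.34 and 0.36 and none passing, and the 15 hepatocyte genes had a median of 0.39. After the subtraction these medians were 0.07, 0.14 and 0.16. In the liver channel taken alone the median of the genes at a ratio of 4 or more was 0.05. The periportal list had a median of 0.56 there with 0 genes called, and the urea cycle and amino acid list one of 0.29. The acute-phase, coagulation and hepatocyte lists had 0.33, 0.14 and 0.11. Markers of Kupffer cells, which are liver macrophages, were above 0 in 15 of 16, with a median of 0.48 and array means of 3.22 to 3.83 in knockouts and 2.94 to 3.24 in controls. Endothelial markers were above 0 in 12 of 12, with a median of 0.35 and array means of 3.78 to 4.22 in knockouts and 3.60 to 3.74 in controls. After the subtraction the Kupffer median was 0.27, with 15 of 16 above the median of their range. The endothelial median was 0.15, with 11 of 12 above it. In the liver channel alone the Kupffer and endothelial medians were 0.29 and 0.10. No marker of either type passed, though 4 Kupffer and 0 endothelial markers were called higher when knockout 3 was left out. The part of these cells in the periportal rises was not tested.

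**Figure D4:**
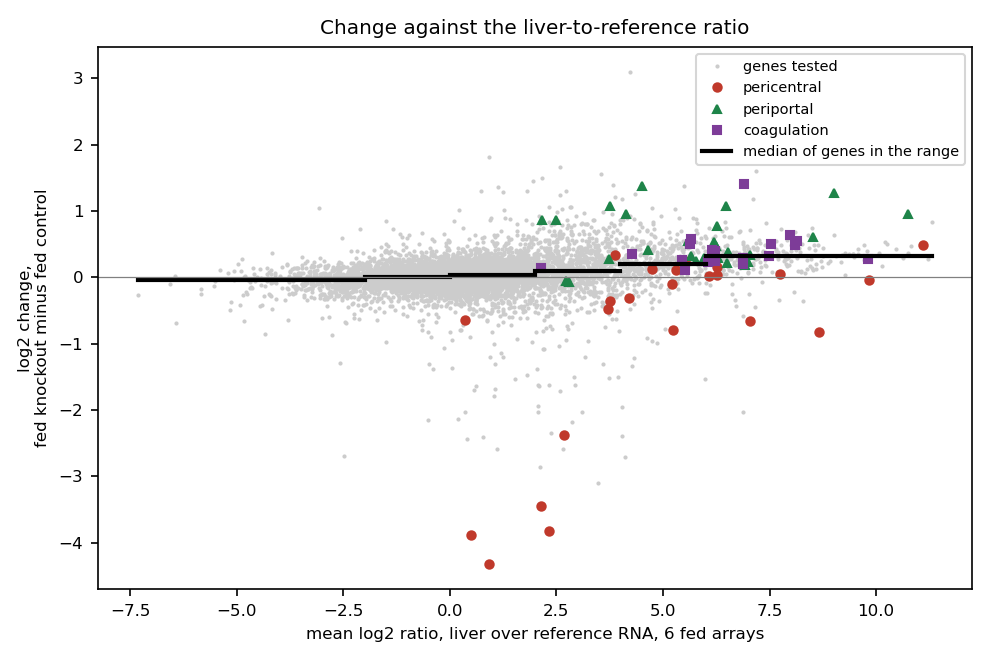
Each grey point is one of 8866 genes, with its mean log2 ratio of liver over reference RNA on the 6 fed arrays across and its log2 change, knockout minus control, upward, and the black bars are the medians of the genes in each range. The bars climb from -0.04 below a ratio of -2 to 0.31 above 6, the periportal genes (green triangles) lie mostly on or above them, and 4 pericentral genes (red circles) lie below -3.

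Genes of fat uptake and storage were among the falls. Of 23 lipid droplet genes and genes that Pparg controls 19 were tested, and 2 were lower, Pparg and Vldlr. With only probes well above background on all 6 fed arrays 14 were tested, with a median of 0.10. Under that filter 0 were lower, so neither Pparg nor Vldlr was among its calls. Pparg, the nuclear receptor that drives fat storage, read -0.79, 0.27 and -0.75 in knockouts and 1.73, 2.16 and 2.07 in controls. Knockout 2 stood above the other knockouts and was still below every control, and the fall was 2.41 ± 0.29 (SE, adjusted p = 0.0014), 5.31-fold.

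Vldlr, a receptor that takes up triglyceride-rich lipoproteins, was well above background in the 3 controls and in no knockout. Its ratios were -3.73, -4.05 and -3.71 in knockouts and -0.99, -1.39 and -1.02 in controls. It was at least 5.86-fold lower (adjusted p = 8.61e-06), with measured means of -3.83 ± 0.19 in knockouts and -1.13 ± 0.22 in controls (SD, n = 3 each). Over the alternatives its log2 change ran from -4.10 to -2.51, in part smaller than that bound.

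Other fat storage genes had changes below 0 without passing. Cd36, a fatty acid transporter, read -0.52, 0.19 and -0.50 in knockouts against 1.17, 1.06 and 2.04 in controls (change -1.70 ± 0.45, adjusted p = 0.191). Plin4, a lipid droplet coat protein, had a change of -2.02 ± 0.66 and Fitm1, a fat storage-inducing protein, one of -1.64 ± 0.40 (adjusted p of 0.347 and 0.147). Cidec, which fuses lipid droplets, overlapped between groups and turned from -1.31 to 0.05 when only slide 5 was used. The median of the list was -0.02, against 0.03 over all genes.

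Cyp4a14, which hydroxylates fatty acids at the end of the chain, read 5.28, 6.54 and 5.75 in knockouts and 7.60, 8.06 and 8.02 in controls. It fell by 2.03 ± 0.28 (adjusted p = 0.00429), 4.09-fold, and passed without any one mouse. Its close relative Cyp4a10 read 5.51, 5.60 and 4.53 in knockouts against 6.76, 6.89 and 6.61 in controls, a change of -1.54 ± 0.35 that did not pass (adjusted p = 0.119). Of 18 Cyp4 and Acot genes, which oxidise or hydrolyse fatty acids and their esters, 13 were tested and only Cyp4a14 passed. Acot1, an acyl-CoA thioesterase, had a change of -1.53 ± 0.46 (adjusted p = 0.299), and the list's median was -0.13.

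The synthesis side of lipid metabolism had no gene past the threshold. Of 22 tested fatty acid synthesis genes none passed and the median was 0.12. Srebf1, its main transcription factor, had a change of 0.77 ± 0.28, Scd1, a desaturase, one of 0.68 ± 0.28 and Elovl5, an elongase, one of 0.56 ± 0.17 (adjusted p of 0.449, 0.560 and 0.307), each with the knockouts above the controls. Of 25 cholesterol synthesis genes none passed, and their median of -0.18 turned to 0.28 on slide 6, against -0.14 on slide 5. Knockout 3 had the highest mean of this list, 2.47, against 1.69 and 1.50 in knockouts 1 and 2 and 1.72 to 2.22 in controls. Of 30 fatty acid oxidation and ketone genes none passed, with a median of -0.02. Beyond the lists, Vnn1, a pantetheinase, had a change of -2.59 ± 0.52 (adjusted p = 0.0551), and Elovl2, an elongase of long unsaturated fatty acids, one of 0.68 ± 0.14 (adjusted p = 0.0661).

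Enzymes that conjugate or hydrolyse drugs and lipids gave 3 falls and no rise among 44 tested genes of 48. Ces2b, a carboxylesterase, read 2.25, 2.24 and 1.30 in knockouts and 4.55, 4.90 and 5.64 in controls. It fell by 3.10 ± 0.30 (adjusted p = 0.000126) and was well above background on 1 of the 3 knockout arrays. Aldh3a2, a fatty aldehyde dehydrogenase, read 1.04, 1.41 and 1.15 in knockouts against 3.36, 3.55 and 3.73 in controls. It fell by 2.35 ± 0.21 (adjusted p = 9.58e-05) and passed under all 26 alternatives. Gstm2, a glutathione transferase, fell by 2.13 ± 0.28 (adjusted p = 0.00346), at -0.86, -1.08 and -0.71 in knockouts and 1.29, 0.68 and 1.77 in controls. The median of the list was 0.08, but it was -0.15 after the median change of each gene's ratio range was subtracted, with 10 of 44 above the median of their range, and -0.24 in the liver channel alone.

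Among 31 tested cytochrome P450 genes and their regulators 1 passed. Cyp2c39, a P450 of the 2c cluster, read 4.25, 4.53 and 3.97 in knockouts and 5.39, 4.99 and 5.24 in controls, a fall of 0.95 ± 0.17 (adjusted p = 0.0294) that passed only without knockout 2 or control 2 when mice were left out in turn. Members of this cluster are near-identical in sequence, so its probe may also read relatives. The female-typical P450 genes Cyp2b9 and Cyp2b13, which were looked at after values were seen, differed between mice of one genotype. Cyp2b9 read 5.84, 6.76 and 2.62 in knockouts against 5.41, 5.06 and 6.29 in controls, with a change of 0.89 on slide 5 and -3.05 on slide 6. Cyp2b13 had a change of 2.15 on slide 5 and of -2.07 on slide 6, and neither gene passed.

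Of the secreted ribonucleases of the angiogenin family, 3 of the 5 tested fell. This group was looked at after its values were seen, so its counts are a description. All of them, Ang, Ang2, Ang4, Ang6 and Rnase4, had every measured knockout below every measured control, and Ang, Ang2 and Ang6 passed. Their probes are shown because probes for relatives could share signal. They are on chromosome 14 of mm9, at 51721338 to 51721397 for Ang, 51815315 to 51815374 for Ang2, 52384066 to 52384125 for Ang4 and 44540232 to 44540291 for Ang6, and no letters are in capitals because no motif is marked.
Ang: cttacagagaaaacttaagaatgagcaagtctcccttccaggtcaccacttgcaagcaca
Ang2: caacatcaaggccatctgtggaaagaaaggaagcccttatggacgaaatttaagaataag
Ang4: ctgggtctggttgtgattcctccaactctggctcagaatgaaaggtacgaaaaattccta
Ang6: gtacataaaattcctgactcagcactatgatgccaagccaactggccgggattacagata
At the best ungapped shift of up to 20 bases, pairs of these probes have 18 to 21 of 60 bases in common, and each has 17 to 23 in common with the probes of the unrelated genes Tcf7l2, Cyp4a10 and Cyp4a14. These counts set probe against probe and not against whole transcripts, so they cannot show whether a probe reads a relative. Another Ang4 probe, which was not tested in the main fit, shares a run of bases with the Ang6 probe. Whether each probe also reads a relative's transcript was not tested.

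Ang6 read 3.64, 3.43 and 4.03 in knockouts and 4.90, 5.15 and 4.73 in controls, and fell by 1.22 ± 0.17 (adjusted p = 0.00455). Ang, angiogenin itself, which cleaves transfer RNA and promotes vessel growth, read 4.52, 4.17 and 4.43 in knockouts and 5.48, 5.53 and 5.07 in controls. Its fall was 0.99 ± 0.17 (adjusted p = 0.0213), 1.98-fold, and lost its call without knockout 2, control 1 or control 2.

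Ang2, which here is the angiogenin relative and not the angiopoietin of that alias, read 1.74, 1.63 and 1.84 in knockouts and 3.38, 3.56 and 3.42 in controls. It was well above background on no knockout array and was at least 3.26-fold lower (adjusted p = 0.0116), with measured means of 1.74 ± 0.10 in knockouts and 3.45 ± 0.09 in controls (SD, n = 3 each). Its log2 change ran from -3.83 to -1.04 over the alternatives, in part smaller than that bound. Its call was lost without knockout 1, knockout 2 or control 3. Ang4 had a change of -1.34 ± 0.33 with control 3 missing because its spot was flagged (adjusted p = 0.170), and Rnase4, which shares promoters with Ang in the mouse, one of -0.92 ± 0.38 (adjusted p = 0.556). These values depend on the choice of probe, as the array holds another Ang4 probe. With only probes well above background on all 6 fed arrays, 4 genes of the group were tested and 3 were lower. Ang2 and the flagged Ang4 probe could not meet that filter. Ang4 was therefore tested there by its other probe, which shares a run of bases with the Ang6 probe. The 3 lower genes under that filter were thus not the same 3 as above.

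The remaining lower genes have varied roles. Slc16a11, a monocarboxylate transporter linked to type 2 diabetes in people, read 0.95, 1.13 and 1.11 in knockouts against 3.02, 2.90 and 3.36 in controls. It fell by 2.03 ± 0.14 (adjusted p = 6.47e-06) and by 1.98 on slide 5 and 2.02 on slide 6. Aatk, a membrane-bound kinase, fell by 2.03 ± 0.28 (adjusted p = 0.00455), at 2.51, 2.47 and 1.25 in knockouts and 3.77, 4.21 and 4.33 in controls. Its lowest value was in knockout 3, and the fall was 1.28 on slide 5 and 3.02 on slide 6.

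Cdk6, a kinase of the cell cycle, read -3.34, -3.37 and -3.00 in knockouts and -1.97, -1.99 and -1.84 in controls, a fall of 1.30 ± 0.18 (adjusted p = 0.00455). Tenm3, a teneurin adhesion protein, fell by 1.80 ± 0.28 and Clstn3, a calsyntenin, by 2.18 ± 0.40 (adjusted p of 0.0116 and 0.0303). Tenm3 lost its call without knockout 1, knockout 2 or control 3. Clstn3 lost its call whichever mouse was left out, although its knockouts read 1.59 to 2.08 and its controls 3.67 to 4.13. Adgrv1, a very large adhesion receptor, read 2.77, 3.29 and 2.23 in knockouts and 5.04, 5.19 and 6.19 in controls, a fall of 2.71 ± 0.46 (adjusted p = 0.0211) that was just short with slide as a block (adjusted p = 0.0503) and was lost without knockout 1, knockout 3 or control 3.

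Rcan2, a calcineurin inhibitor, was at least 3.23-fold lower (adjusted p = 0.0116), with no knockout array well above background and measured means of -1.59 ± 0.03 in knockouts and 0.56 ± 0.25 in controls (SD, n = 3 each), and lost its call without knockout 1, knockout 2 or control 1. A probe named for the odorant receptor gene Olfr114 was at least 2.74-fold lower (adjusted p = 0.00521), with means of 1.26 ± 0.06 in knockouts and 2.87 ± 0.19 in controls (SD, n = 3 each). Over the alternatives its log2 change ran from -2.65 to -1.19, in part smaller than that bound. It lies on chromosome 17 of mm9 at 37726523 to 37726582. The smallest falls were those of Rmdn2, a microtubule-associated protein (-0.95 ± 0.17), of the lysosomal enzymes Arsa, arylsulfatase A (-0.89 ± 0.16), and Hexa, a subunit of hexosaminidase (-0.64 ± 0.12), and of Chpt1, which makes phosphatidylcholine (-0.63 ± 0.12), with adjusted p between 0.028 and 0.034. Left out in turn, Arsa passed only without knockout 3, Chpt1 only without knockout 1, Rmdn2 only without control 2, and Hexa without knockout 3 or control 2. Among 20 tested lysosomal hydrolases, a list added after these values were seen, only Arsa and Hexa passed, and the median was 0.01.

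Further higher genes were on neither the periportal nor the urea cycle list. Dapk1, a death-associated kinase, read 3.83, 3.07 and 3.14 in knockouts against 2.54, 2.24 and 2.09 in controls, and rose by 1.05 ± 0.19 (adjusted p = 0.0294), a call lost without knockout 1, control 2 or control 3.

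Plxnb1, a semaphorin receptor, was well above background in the 3 knockouts and in no control. It was at least 2.43-fold higher (adjusted p = 0.0349), with means of 1.38 ± 0.33 in knockouts and 0.08 ± 0.19 in controls (SD, n = 3 each), and lost its call whichever mouse was left out. Its log2 change ran from 0.72 to 1.93 over the alternatives, in part smaller than that bound. Ebpl, a relative of the sterol isomerase EBP, rose by 0.67 ± 0.13 (adjusted p = 0.0349) and lost its call in the same way. Hsd11b1, which regenerates active glucocorticoid, read 7.76, 7.70 and 7.48 in knockouts and 7.19, 7.24 and 7.04 in controls, a rise of 0.49 ± 0.09 (adjusted p = 0.0418). Of the repeats that left out a mouse, it passed only in the one without knockout 3.

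Sult2a7, a sulfotransferase looked at after values were seen, had the largest change above 0 of the 8866 genes but did not pass. It read 6.21, 6.05 and 5.06 in knockouts against 2.21, 2.13 and 3.67 in controls, a change of 3.10 ± 0.71 (adjusted p = 0.114), and was well above background in the 3 knockouts and in 1 control. Orm2, an acute-phase glycoprotein, had a change of 0.81 ± 0.17 and Fgl1, a secreted fibrinogen relative, one of 1.19 ± 0.26 (adjusted p of 0.0782 and 0.105). Serpina7, which carries thyroid hormone in blood, had no knockout array well above background and did not pass (adjusted p = 0.0782).

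Fed livers were set against fasted ones, which came from other mice and were on other slides, so feeding and slide cannot be told apart. In fasted livers 82 of the 8866 genes passed (0.925%), 27 higher and 55 lower (0.62% lower). Of the 27 genes lower in fed knockouts 19 were also lower in fasted knockouts, which is 70.37% of the fed and 34.55% of the fasted list. Of the 10 genes higher in fed knockouts 1, Sdsl, was also higher in fasted knockouts, 10.0% of the fed and 3.7% of the fasted list. The test of the difference between the fed and the fasted change passed for 0 genes by limma, with an unadjusted p under 0.05 for 602 (6.79%), and for 3 genes with the software's processed signals.

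The 19 shared falls included the pericentral genes Lhpp, Oat, Glul and Slc1a2. Lhpp changed by -4.33 in fed and -4.33 in fasted livers, Oat by -3.89 and -3.86, and Glul by -3.82 and -2.94. Sp5 changed by -2.58 in fed livers, where knockouts were not well above background, and by -4.68 in fasted livers (difference 2.09 ± 0.36, adjusted p = 0.270).

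The other 8 lower genes did not pass in fasted livers, namely Adgrv1, Ang, Ang2, Ang6, Arsa, Cyp2c39, Cyp4a14 and Hexa. For none of them did the difference between feeding states pass. Cyp4a14 came nearest, with -2.03 in fed and 0.10 in fasted livers (difference -2.14 ± 0.37, adjusted p = 0.270). Ang had changes of -0.99 in fed and -0.13 in fasted livers and Ang6 of -1.22 and -0.33 (adjusted p = 0.523 for both differences). Among the higher genes Cps1 had changes of 0.95 in fed and -0.05 in fasted livers (difference 1.00, adjusted p = 0.507).

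**Figure D5:**
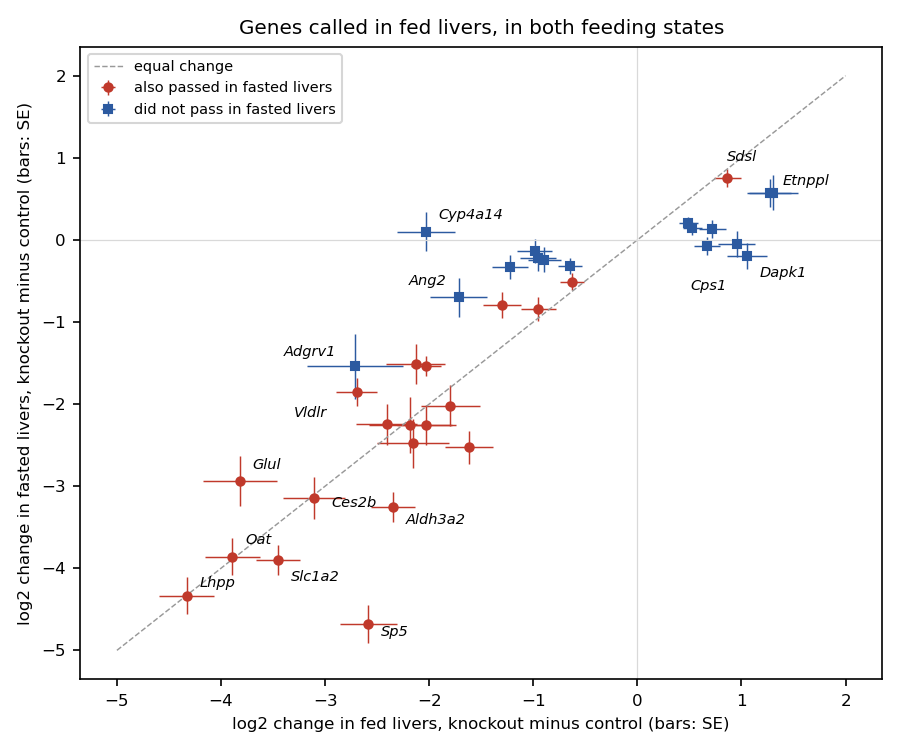
Each point is one of 36 of the 37 genes called in fed livers, with its log2 change in fed livers across and in fasted livers upward, knockout minus control, and bars of 1 SE. The 20 genes that also passed in fasted livers (red circles) include Lhpp at -4.33 in both states and Sp5 at -2.58 fed and -4.68 fasted, and Cyp4a14 lies at -2.03 fed and 0.10 fasted, off the dashed line of equal change.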

How the data were processed

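Per the file headers, the deposited array files hold median spot and background intensity values of both channels, quantified with Agilent Feature Extraction 10.5.1.1, and log10 ratios of reference over liver that the authors also deposited as one table. The submitters' processing notes name version 8.5.1.1, and which version made the values is not settled. The table equalled the files' ratios on every array, with a largest difference of 0. Liver RNA was labelled with Cy3 and the reference with Cy5, per the labels, with no dye swap.

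Local backgrounds marked as outliers were replaced by the array's median background. Signals were then background-corrected by normexp (offset 50) and ratios were normalized by loess within each array, control spots at weight 0, then turned to log2 of liver over reference. Flagged spots were set to missing. Of 41174 probes 32846 were named through RefSeq and the rest kept the file's name. Probes well above background in the liver channel on at least 3 of the 6 fed arrays were tested, the brightest per gene, 8866 in all, of which 13 genes were so on all 3 controls and no knockout and 7 the reverse. Here limma 3.58.1 in R 4.3.3 fitted 1 mean for each of 4 groups over all 14 adult arrays (10 residual degrees of freedom, two-sided tests, Benjamini-Hochberg adjustment). Bounds written as at least N-fold compare the brighter group with the dimmer one, from single channels after loess and Aquantile. In the dimmer group each array's signal was used, or the lowest signal well above background on that array where this was larger. Without dye swaps these bounds are open to dye bias. The script was tested on simulated data. Python 3.11.15 and matplotlib 3.10.9 made the tables and figures.

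Every gene that passed was named, except 1 that is not reported here, with the 10 nearest in each direction, up to 4 per list, and some added after their values were seen. From these only part is printed. The members and the 38 gene lists were chosen with earlier results of these data known, and 3 further lists were added after values were seen. Alternatives in background, normalization, filter, probe choice, spread, slide, replicate number and single arrays are in the closing section. Newborn arrays were not used here.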

Additional observations from a re-analysis of the deposited data

How the results depend on the processing

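The main counts were 37 genes in fed livers, 10 higher and 27 lower. They became 9 (0 higher, 9 lower) with outlier backgrounds kept, 24 (0 higher) with median centring, 104 (52 higher, 52 lower) with array weights, 27 higher and 16 lower within slide 5, and 19 (4 higher, 15 lower) within slide 6. The higher count alone moved to 4 with the software's processed signals, 1 with the liver channel alone, 5 each with a filter of 3 of 14 adult arrays, without a filter, and with a trended robust spread, 6 with the fed arrays alone and 17 at an adjusted p of 0.1. Leaving out 1 mouse gave 24 to 65 genes, 3 to 33 higher and 18 to 32 lower, with the most without knockout 3. Of the original calls, these repeats kept 2 to 7 of 10 higher and 18 to 23 of 27 lower. The fed arrays alone, which take no spread from the fasted arrays, kept 3 higher and 17 lower. Processed signals kept 2 and 24, the liver channel alone 1 and 20, and array weights all 10 and 27. The replicate block gave 24 genes, 4 of them higher. Same-numbered mice correlated at 0.24, -0.11 and 0.06 in their deviations from the group means, and differently numbered mice at -0.20 to 0.15. With 3 mice a group these values cannot show whether the numbers pair mice, and the labels name no pairs.

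The difference between fed and fasted changes passed for 0 genes, but for 3 with the software's processed signals, 73 within slides 5 and 3, and 0 to 3 without 1 mouse. The 82 fasted genes became 52 with processed signals, 40 with all 6 fed arrays above background, 140 with slide as a block, 380 and 21 within slides 3 and 4, 35 with the replicate block and 194 at an adjusted p of 0.1. The cause of these moves was not tested.

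Over the 37 called genes and the alternatives, 666 results kept direction and call, 282 kept direction only and none reversed. Reversals were in genes that did not pass. Ctnnb1 came to -0.0168 with median centring, Cyp2a5 to 0.20 with processed signals, and within slide 5 Tcf7l1 came to -0.13, Cidec to 0.0503, Cyp2b9 to 0.89 and Eif2s3y to 0.0915. Cyp2b9 was 0.24 with array weights and Cyp2b13 -0.18 with the liver channel alone, -0.0405 with a gene's probes averaged and -2.07 within slide 6. Without 1 mouse the changes ran from -0.0191 to 0.287 for Tcf7l1, from -1.36 to 0.715 for Cyp2b9, from -0.431 to 1.25 for Cyp2b13 and from -0.156 to 0.0360 for Eif2s3y.

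With 3 mice a group and 22.8% to 31.2% of liver spots well above background, low genes such as Axin2 and Lgr5 could not be tested. The reference channel alone gave 1 gene between the genotypes and 239 at an unadjusted p under 0.05. The background raised by negative controls, chosen after seeing the data, gave the same 10 and 27 genes. It adds a constant per array and channel, and normexp then estimates the remaining background anew. That sameness was therefore fixed in advance and is no support, and the effect of the high negative-control signal was not tested.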

Other observations

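Several liver programs had no gene past the threshold in fed livers. None of 24 tested genes of glycolysis, fructose use and glycogen passed, with a median log2 change of 0.07, and none of 18 genes of glucose production and insulin signalling, with a median of 0.05. Among 15 tested clock genes none passed, and the median was 0.39 on slide 5 and -0.08 on slide 6. Bile acid genes (22 tested) and apolipoproteins with other lipoprotein genes (20 tested) had medians of 0.22 and 0.26 and no call, though 19 of the 20 lipoprotein genes lay above 0. After the median change of genes with a like liver-to-reference ratio was subtracted, these medians were -0.01 and 0.04, with 12 of the 20 lipoprotein genes above 0. Abcb11, the bile salt export pump, had a change of 0.55 ± 0.13 (limma adjusted p = 0.121), and Acaa1a, a peroxisomal thiolase, one of -0.76 ± 0.18 (adjusted p = 0.131).

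Of male-biased and female-biased liver genes 16 and 8 were tested and none passed, with medians of 0.14 and 0.21. Of 20 proliferation genes 8 were tested, none passed and the median was -0.17. Markers of stellate cells and fibroblasts (11 tested), bile duct cells (3), lymphocytes (4) and red cells (3) had no call, and none of 10 muscle markers was bright enough to be tested.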
